A study of Mus musculus with 24 samples.

Results

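The miR-148 and miR-152 family comprises 3 mouse hairpins, and the 6 mature miRNAs cut from them were followed here: mmu-miR-148a-3p, mmu-miR-148a-5p, mmu-miR-148b-3p, mmu-miR-148b-5p, mmu-miR-152-3p and mmu-miR-152-5p. They were taken by name from a table of 1978 mature miRNAs. The rule used no measured value, though earlier results of these data were known when it was set. Small RNA was sequenced in 24 libraries, 4 for each of 3 genotypes in 2 cell types, pachytene/diplotene spermatocytes (germ cells late in the first meiotic prophase) and round spermatids (the haploid cells that follow meiosis). The genotypes were Ago413+/+ (wild-type), Ago413+/- and Ago413-/-, in which Ago1 is deleted fully and its neighbours Ago3 and Ago4 partly. Ago2 is intact in all groups. The deletion is constitutive and so is present in every cell of the testis, somatic cells included. The males were 10 to 15 weeks old on a C57BL/6J background, and each preparation pooled the testes of 2 to 5 mice before the cells were enriched on an albumin gradient. The fractions were not pure, and the authors give a lower purity for spermatocytes than for round spermatids. The labels do not say that replicates came from separate pools, so p-values measure the spread between these libraries.

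miRNAs are cut from hairpin RNAs, and the 5′ and 3′ arms of a hairpin each yield a strand, the 5p and the 3p miRNA. An Argonaute protein holds 1 strand and pairs it with mRNAs mainly through the seed, bases 2 to 8, while the other strand is usually degraded. The 3p strands of this family share a seed and are known to repress DNA methyltransferase genes, Dnmt1 among them, and miR-148a-3p is an abundant miRNA of many tissues. Their 5p strands are the minor products of the hairpins.

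The mature sequences, from RefSeq annotation of GRCm38.p6 and with the seed in capitals, are shown because they define the family and place its members in seed groups. The 3p strands share the seed CAGUGCA:
mmu-miR-148a-3p: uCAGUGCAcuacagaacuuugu
mmu-miR-148b-3p: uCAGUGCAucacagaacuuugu
mmu-miR-152-3p: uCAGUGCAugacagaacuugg
The 5p strands of miR-148a and miR-148b share the seed AAGUUCU, and that of miR-152 has AGGUUCU:
mmu-miR-148a-5p: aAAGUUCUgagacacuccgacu
mmu-miR-148b-5p: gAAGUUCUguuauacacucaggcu
mmu-miR-152-5p: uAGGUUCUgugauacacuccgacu
Counting from 1 at the 5′ end of miR-148a-3p, miR-148b-3p differs by C9U and U10C, and miR-152-3p by C9U, U10G and U20G over its 21 bases. The miR-148a and miR-148b 3p strands thus differ at 2 of 22 positions, so that reads matched with mismatches could be assigned to either. Of the 1679 miRNAs of the table with a RefSeq sequence, none outside the family has 1 of these seeds.

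The hairpins lie on 3 chromosomes. Mir148a is at chr6:51269812-51269910 on the minus strand and is intergenic, 162760 bases from the nearest protein-coding gene, Nfe2l3. Its 99-base hairpin, from which both arms discussed below are cut, is printed with the 5p arm first and the 3p arm second in capitals:
Mir148a hairpin: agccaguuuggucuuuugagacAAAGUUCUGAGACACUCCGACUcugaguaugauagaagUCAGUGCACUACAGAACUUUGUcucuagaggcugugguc
Mir148b is at chr15:103285125-103285221 in an intron of Copz1, and Mir152 is at chr11:96850393-96850465 in an intron of Copz2, both on the strand of the host gene. Copz1 and Copz2 code for zeta subunits of the COPI vesicle coat. No other miRNA hairpin lies within 50 kb of any of the 3.

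The 3p strands held nearly all reads of the family. Over the 24 libraries miR-148a-3p had 466888 counts, or 3.78% of all miRNA counts, and miR-148b-3p had 80234 (0.650%). By contrast miR-152-3p had 3004 counts, miR-148a-5p 441, miR-148b-5p 231 and miR-152-5p 16. By mean CPM (counts brought to a common library total after TMM scaling), miR-148a-3p took places 3 to 8 among the 1978 miRNAs in the 6 groups. The library totals ran from 182904 to 1072637 counts, and 3 counts, the most that a count of 0 allows, correspond to between 2.74 and 20 CPM. This limit and the binomial intervals given below describe counting error alone, because the libraries were amplified without molecular identifiers and a read need not be a separate molecule. The filter on low counts, 10 or more counts in 3 or more libraries, was passed by 4 members in spermatocytes and by 5 in round spermatids. miR-148b-5p was not tested in spermatocytes, and miR-152-5p, with between 0 and 3 counts per library and 0 in 14 of 24, was not tested anywhere.

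**Figure D1:**
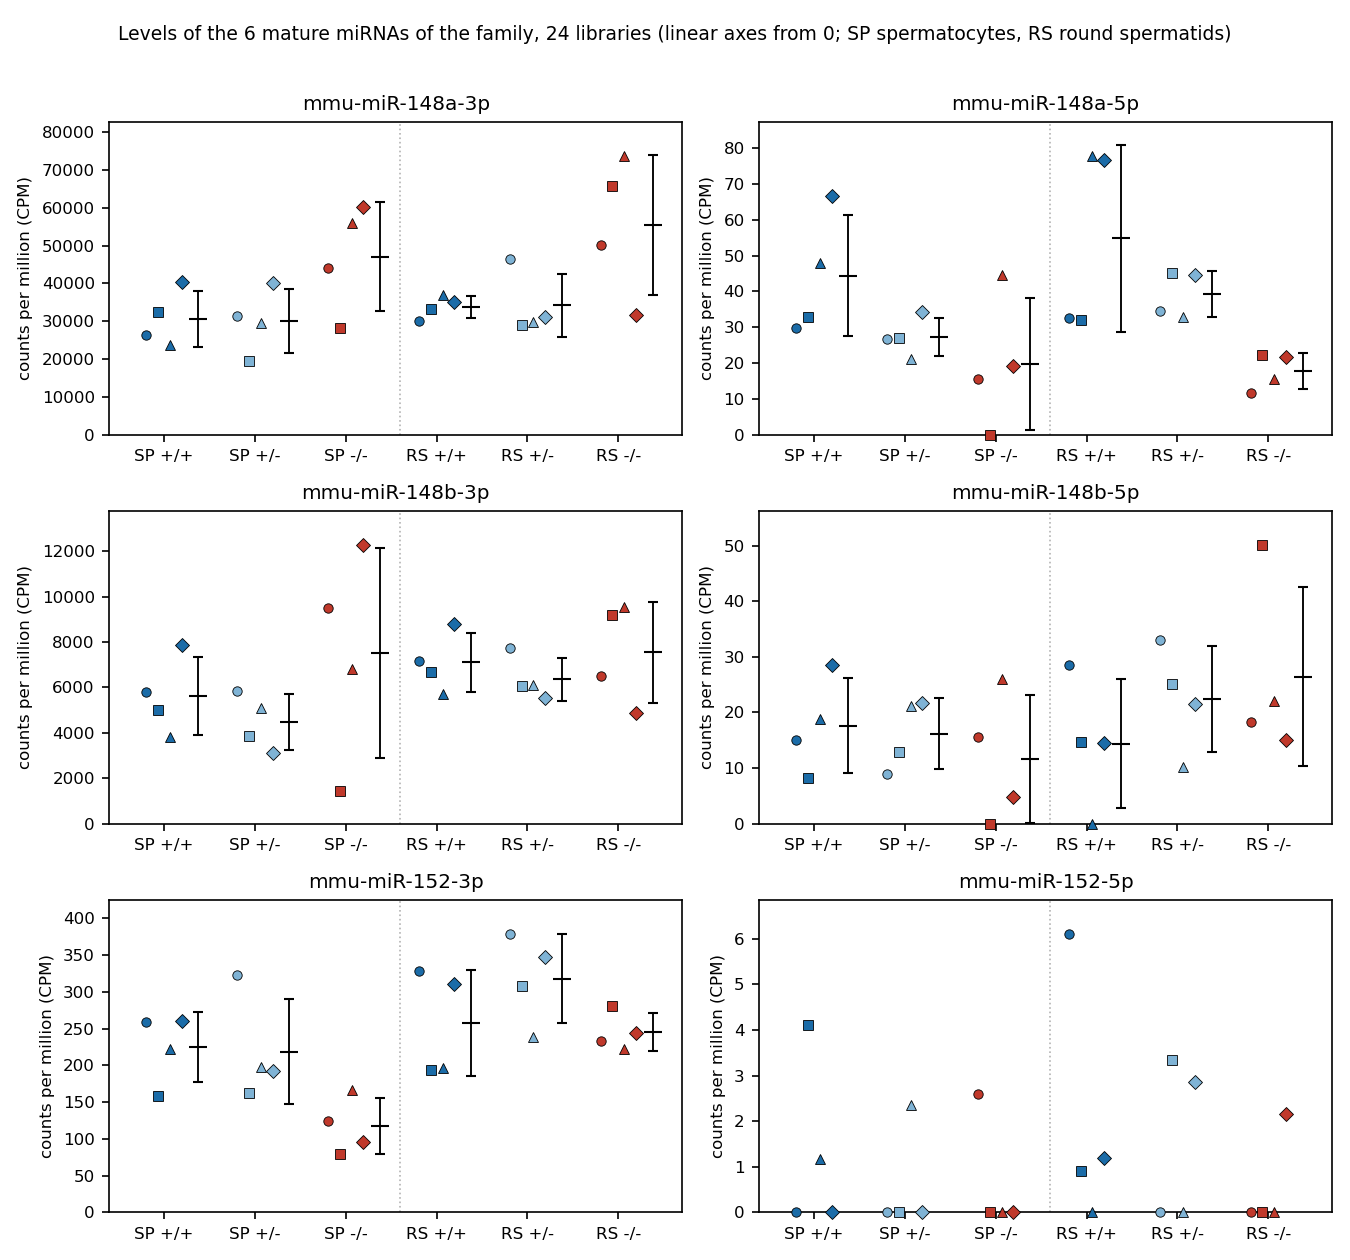
Level of each mature miRNA in CPM on linear axes from 0, with 1 symbol per library (circle, square, triangle and diamond for replicates 1 to 4), grouped by cell type (SP spermatocytes, RS round spermatids) and Ago413 genotype; the bars are the mean ± SD (n = 4), left out for mmu-miR-152-5p. In round spermatids the Ago413-/- libraries of mmu-miR-148a-5p sit between 11.7 and 22.3 CPM, all below the other genotypes, while 3 of the 4 Ago413-/- libraries of mmu-miR-148a-3p lie above the 4 Ago413+/+ libraries.

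The main question was how the family differed in the absence of Ago1, Ago3 and Ago4. In round spermatids, the 2 strands of miR-148a differed between Ago413-/- and Ago413+/+ in opposite directions. The minor strand miR-148a-5p fell in Ago413-/- cells to less than its level in any wild-type library. The major strand miR-148a-3p was higher on average but not by the fold required of a call, and miR-148b-3p and miR-152-3p did not pass the test. A miRNA was called where edgeR's quasi-likelihood test gave an adjusted p (Benjamini-Hochberg over all miRNAs tested) under 0.05 and the log2 fold change was 1 or more in size.

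miR-148a-5p was at 32.6, 32.0, 77.9 and 76.8 CPM in the Ago413+/+ round spermatid libraries and at 34.6, 45.2, 32.9 and 44.5 CPM in Ago413+/-. In Ago413-/- it was at 11.7, 22.3, 15.5 and 21.6 CPM, from 7 to 12 counts per library. The Ago413-/- libraries lay below all 8 others. The log2 fold change against Ago413+/+ was -1.47 (SE 0.38, edgeR adjusted p = 0.0120). Against Ago413+/- it was -1.11 (SE 0.38, edgeR adjusted p = 0.0510), past the fold but not the p threshold, although DESeq2 gave it an adjusted p of 0.0395. In the wild-type group, replicates 3 and 4, whose library numbers in the labels are above 60, were higher than replicates 1 and 2. Within the libraries numbered up to 60 and within those above it, both Ago413-/- libraries lay below both Ago413+/+ libraries. The labels do not say whether these numbers mark a batch.

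miR-148a-3p, the guide strand, was at 30183, 33165, 36969 and 35211 CPM in the Ago413+/+ round spermatid libraries. In Ago413+/- it was at 46535, 29062, 29922 and 31110 CPM, and in Ago413-/- at 50272, 65707, 73768 and 31743 CPM. Replicates 1, 2 and 3 of Ago413-/- lay above all other round spermatid libraries, and replicate 4 lay within the wild-type range. The log2 fold change was 0.86 against Ago413+/+ (SE 0.25, edgeR adjusted p = 0.0187) and 0.77 against Ago413+/- (SE 0.25, edgeR adjusted p = 0.0410), both under the fold threshold. Without Ago413-/- replicate 4 it reached 1.01 against Ago413+/+ and passed both thresholds. Over the 17 alternatives run, the edgeR or DESeq2 adjusted p against Ago413+/+ ranged from 0.00705 to 0.173 and was under 0.05 in 10. Against Ago413+/- it ranged from 0.0157 to 0.180 and was under 0.05 in only 3 of 17. In both contrasts 1 of these alternatives, the adjusted p alone, reuses the main fit. The median of all miRNAs tested was itself at 0.13 in the contrast with Ago413+/+, and at -0.09 with library totals in place of TMM. miR-148a-3p stood 0.73 above that median with TMM and 0.69 above it with library totals, and miR-148a-5p stood at -1.61 and -1.60 relative to it.

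The other members showed no called difference in round spermatids. miR-148b-3p was between 5721 and 8799 CPM in Ago413+/+ and between 4886 and 9550 CPM in Ago413-/- (log2 fold change 0.23, SE 0.24, edgeR adjusted p = 0.532). miR-152-3p was at 328, 194, 196 and 311 CPM in Ago413+/+ and at 233, 281, 222 and 244 CPM in Ago413-/-, so that the null libraries lay inside the wild-type range. Its log2 fold change was 0.06 (SE 0.26, edgeR adjusted p = 0.894), and it turned to -0.17 with library totals. miR-148b-5p ran from 0 to 28.5 CPM in Ago413+/+ and from 15.1 to 50.2 CPM in Ago413-/-, with overlap (log2 fold change 0.85, SE 0.57, edgeR adjusted p = 0.293).

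In counts, 1 of the 5 members tested was called in Ago413-/- against Ago413+/+ round spermatids, miR-148a-5p, beside 16.2% of the 426 miRNAs tested. At any fold change 2 of 5 passed the adjusted p, beside 23.7%, and 1 of 5 had groups that did not overlap in CPM, beside 23.7%. The members' median log2 fold change was 0.23. Against Ago413+/-, none of 5 was called by edgeR, beside 12.4%. At an unadjusted p under 0.05 there were 2, beside 144 of 426 miRNAs, and DESeq2 called 1, beside 60 of 426. At any fold change 1 passed, beside 19.0%, and 1 did not overlap, beside 23.2%. With 5 members tested, these counts show nothing particular to the family. The contrasts share the Ago413-/- libraries.

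Some markers of other cells differed with genotype in the same libraries. Against Ago413+/+ round spermatids, Ago413-/- had 2 of the 2 erythrocyte miRNAs tested called higher, and 2 of 3 of leukocytes. The count was 1 of 2 for endothelium, 1 of 4 for peritubular and mesenchymal cells and 1 of 2 for gonadal somatic cells (miR-202-5p). Beside these, 16.2% of the 426 miRNAs tested were called in either direction. In the peritubular list miR-199a-3p rose, while miR-145a-5p was at a log2 fold change of -1.74 (SE 0.95). Also without a call, miR-143-3p was at -0.14 (SE 0.59) and miR-214-3p at 0.19 (SE 0.44). The summed level of the gonadal somatic list was 12104 ± 2909 CPM (SD, n = 4) in Ago413-/- (9034 to 15979) and 4804 ± 2408 in Ago413+/+ (2500 to 8176). For leukocytes it was 458 ± 68 CPM (371 to 533) and 218 ± 81 (134 to 322), for endothelium 3647 ± 1666 (1951 to 5858) and 1275 ± 779 (511 to 1990), and for peritubular cells 6794 ± 596 (6169 to 7579) and 5263 ± 3549 (2686 to 10380). The erythrocyte list ran from 103 to 4813 CPM in Ago413-/- and from 49.2 to 501 in Ago413+/+. The highest value belonged to Ago413-/- replicate 4, the library in which miR-148a-3p was lowest of those 4. The list for meiotic and postmeiotic germ cells, the labelled cells (miR-34b-5p, miR-34c-5p and miR-449a-5p), was at 90925 ± 28983 CPM in Ago413-/- and 84330 ± 20214 in Ago413+/+. None of its 3 miRNAs was called by edgeR, and 1 passed the adjusted p alone. No list had a miRNA at 0 in all libraries of either group. The part of other cells in the miR-148a results was not tested, and in bulk fractions fewer cells of a type and less miRNA per cell cannot be told apart.

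The share of the 5p strand among reads of the miR-148a hairpin needs no scaling between libraries and was lower in Ago413-/- than in Ago413+/+ in both cell types without overlap. How many other hairpins had shares without overlap was not counted. Among single miRNAs, CPM did not overlap between these genotypes for 23.7% in round spermatids and 19.8% in spermatocytes. In round spermatids 0.108%, 0.0964%, 0.210% and 0.218% of miR-148a reads were 5p in the Ago413+/+ libraries, 0.0744%, 0.155%, 0.110% and 0.143% in Ago413+/-, and 0.0232%, 0.0339%, 0.0210% and 0.0679% in Ago413-/-. The exact Clopper-Pearson 95% interval of the highest null library, with 10 reads of the 5p and 14721 of the 3p strand, ran from 0.0326% to 0.125%, and so reached into the Ago413+/+ range, while that of replicate 3 ran from 0.0109% to 0.0367%. The means were 0.158% ± 0.065 (SD, n = 4), 0.121% ± 0.036 and 0.0365% ± 0.022. With the reads of a group summed, 662 reads of the 3p strand were found per 5p read in Ago413+/+, 860 in Ago413+/- and 3395 in Ago413-/-.

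In spermatocytes the 5p share was 0.114%, 0.101%, 0.203% and 0.165% in the Ago413+/+ libraries and 0.0850%, 0.139%, 0.0715% and 0.0855% in Ago413+/-. In Ago413-/- it was 0.0355%, 0%, 0.0794% and 0.0320%. The 0 stands for 0 of 4222 reads, which allows a share of up to 0.0873% (exact 95% interval). The means were 0.146% ± 0.047 (SD, n = 4), 0.0953% ± 0.030 and 0.0367% ± 0.033, with 696, 1035 and 2215 reads of the 3p strand per 5p read. These shares are a score over 2 members and were not tested.

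**Figure D2:**
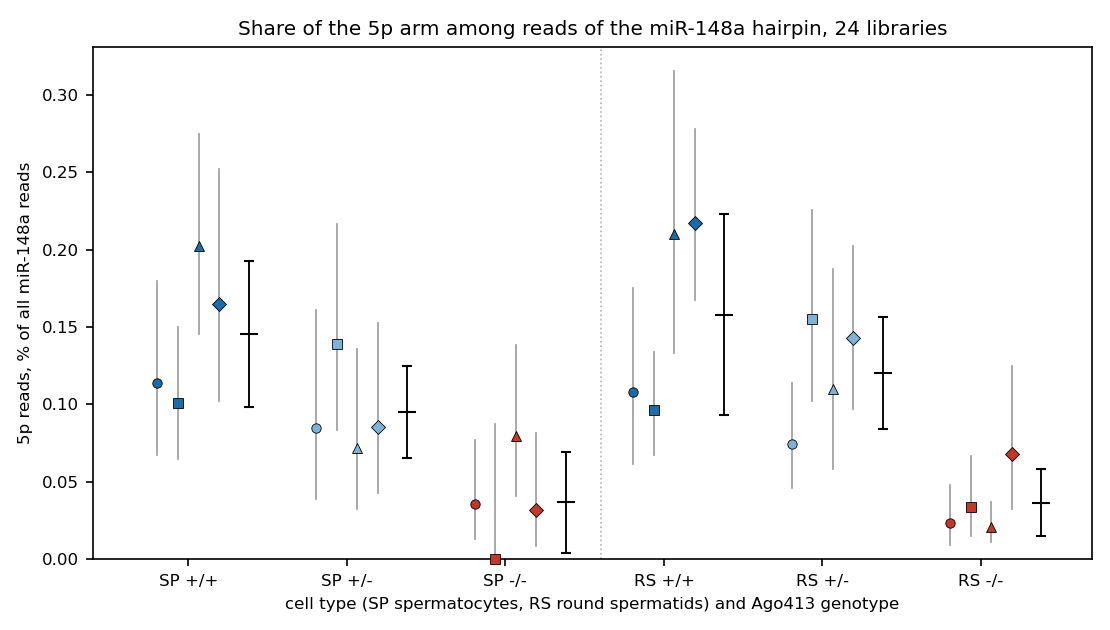
Reads of the 5p strand as a percent of all reads of the miR-148a hairpin, with 1 symbol per library (replicates 1 to 4 as circle, square, triangle and diamond), its exact 95% binomial interval as a grey line and the mean ± SD of the group (n = 4) in black. The 8 Ago413-/- libraries lie between 0% and 0.0794%, below the 8 Ago413+/+ libraries, and the Ago413+/- libraries, between 0.0715% and 0.155%, overlap with Ago413+/+ in both cell types and with Ago413-/- in spermatocytes.

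Few hairpins had as large a fall of the minor relative to the major strand in round spermatids. Shifts of the same size in the opposite direction were not counted. In round spermatids the log2 fold change of the 5p minus that of the 3p strand of miR-148a was -2.34 for Ago413-/- against Ago413+/+, the fourth lowest difference of minor minus major strand among the 104 hairpins with both strands tested, whose median was -0.15. Against Ago413+/- it was -1.87, the fifth lowest of 104 (median -0.19). In spermatocytes it was -1.68 against Ago413+/+, the eighth lowest of 100 (median -0.09), and -1.03 against Ago413+/-, in place 15 (median -0.15). Low counts of a minor strand widen such differences, and the ranks are a description. For the miR-148b hairpin, the difference in Ago413-/- against Ago413+/+ round spermatids was 0.62, in place 85 of 104, and its 5p share was 0.194% ± 0.163 (SD, n = 4) in Ago413+/+ and 0.340% ± 0.139 in Ago413-/-, with overlapping libraries. In spermatocytes its 5p share was 0.318% ± 0.140 in Ago413+/+ and 0.146% ± 0.171 in Ago413-/-, the direction seen for miR-148a, again with overlapping libraries. The miR-152 hairpin had too few reads for a share, with 12 in the library with fewest.

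In spermatocytes no member was called in Ago413-/- against Ago413+/+. The lowest adjusted p belonged to miR-152-3p, which was at 125, 80.0, 167 and 96.3 CPM in Ago413-/- against 259, 159, 222 and 260.5 CPM in Ago413+/+ and 323, 162, 198 and 193 CPM in Ago413+/-. The highest Ago413-/- library, replicate 3, lay above the lowest library of each other genotype, and the other 3 lay below all 8. The log2 fold change was -0.95 against Ago413+/+ (SE 0.35, edgeR adjusted p = 0.0991) and -0.95 against Ago413+/- (SE 0.35, edgeR adjusted p = 0.0991). DESeq2 gave adjusted p of 0.0473 and 0.0399 for them at log2 fold changes of -0.96 and -0.998, the latter just short of the threshold. The counts behind these values were low, from 12 to 48 per Ago413-/- library.

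The strands of miR-148a had the same signs in spermatocytes as in round spermatids, without passing the test. miR-148a-3p was at 26266, 32539, 23633 and 40311 CPM in Ago413+/+ and at 44005, 28144, 56016 and 60209 CPM in Ago413-/- (log2 fold change 0.60, SE 0.30, edgeR adjusted p = 0.244). Replicates 1, 3 and 4 of Ago413-/- lay above every wild-type library, and replicate 2, the library with the fewest counts of all 24, within them. miR-148a-5p was at 29.9, 32.9, 48.0 and 66.7 CPM in Ago413+/+ and at 15.6, 0, 44.5 and 19.3 CPM in Ago413-/- (log2 fold change -1.08, SE 0.56, edgeR adjusted p = 0.252), where the 0 allows up to 20 CPM. miR-148b-3p varied widely in Ago413-/- spermatocytes, at 9479, 1427, 6814 and 12284 CPM, around 5777, 5006, 3805 and 7884 CPM in Ago413+/+ (log2 fold change 0.41, SE 0.48, edgeR adjusted p = 0.638). Its lowest value was again in replicate 2.

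None of the 4 members tested in spermatocytes was called by edgeR, beside 4.46% of 404 miRNAs, and none had groups without overlap in CPM, beside 19.8%. DESeq2 also called none of 4, beside 61 of 404 miRNAs, and 1 member had an unadjusted p under 0.05 in edgeR, beside 103 of 404. Against Ago413+/-, edgeR called none of 4, beside 2.23%, and DESeq2 none, beside 57 of 404. At an unadjusted p under 0.05 there was 1 member in edgeR, beside 96 of 404. The members' median log2 fold change was -0.27 against Ago413+/+ and 0.08 against Ago413+/-, where the medians of all miRNAs were -0.05 and -0.04. Here the marker lists of other cells held no miRNA called by edgeR, and their summed levels overlapped between Ago413-/- and Ago413+/+. Gonadal somatic miRNAs ran from 2758 to 9279 CPM in Ago413-/- and from 3434 to 8840 in Ago413+/+. The erythrocyte list, at 460 to 2869 CPM in Ago413-/-, did not overlap with Ago413+/- (71.5 to 347), while the other lists of other cells did. The germ cell list was at 54493 ± 25424 CPM (SD, n = 4; 18751 to 78881) in Ago413-/- and 88896 ± 26895 (58090 to 112119) in Ago413+/+, also with none of 3 called by edgeR.

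**Figure D3:**
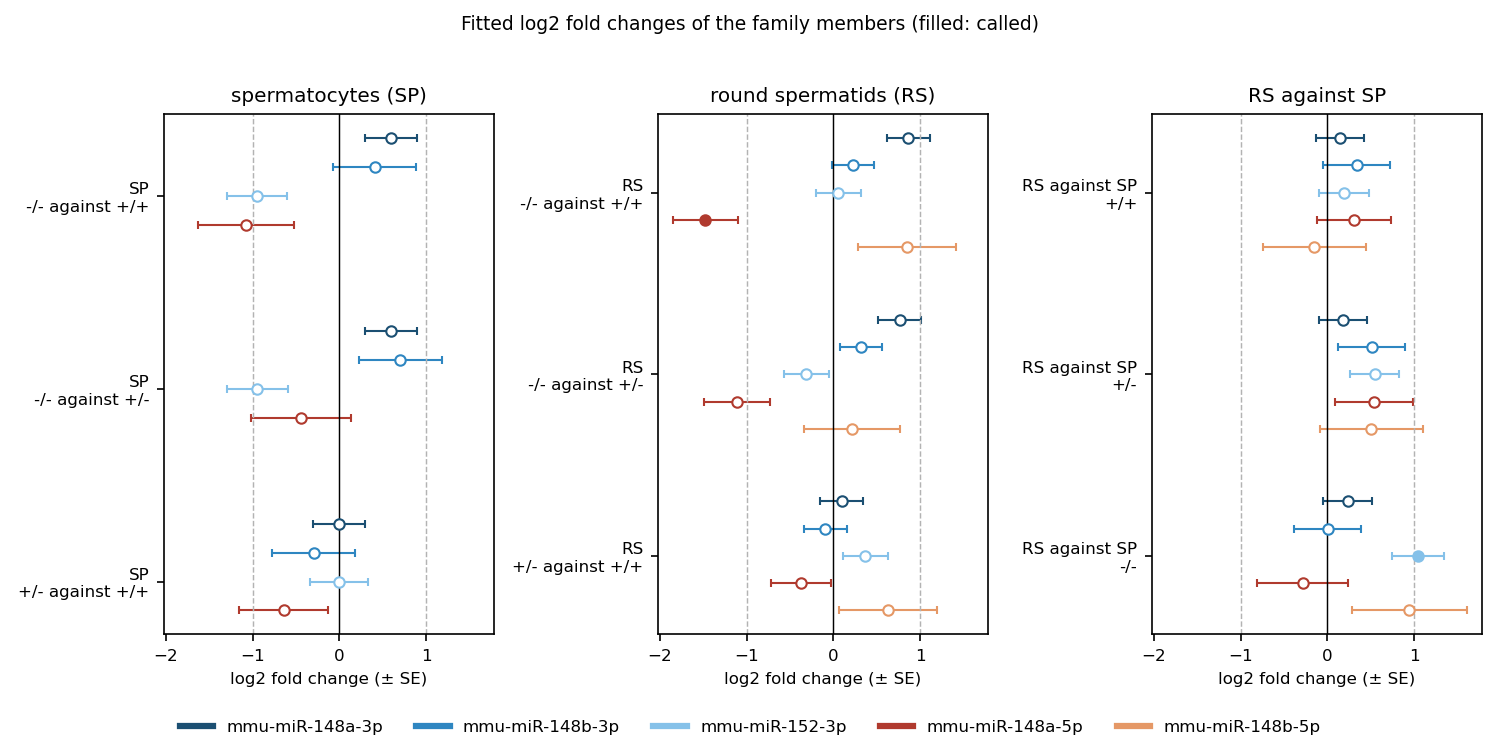
Log2 fold change ± SE of each tested member (horizontal axis) in the 9 comparisons between genotypes within a cell type and between cell types within a genotype; filled symbols are called and dashed lines mark a change of 1 in either direction. The called values are -1.47 for mmu-miR-148a-5p in Ago413-/- against Ago413+/+ round spermatids and 1.04 for mmu-miR-152-3p in Ago413-/- round spermatids against spermatocytes.

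Whether 1 remaining copy of the 3 genes altered the family was asked of the Ago413+/- libraries. Against Ago413+/+, edgeR called none of 4 members in spermatocytes and none of 5 in round spermatids, beside 0% of all miRNAs in each cell type. DESeq2 also called no member, beside 0 of 404 miRNAs in spermatocytes and 6 of 426 in round spermatids. No member had an unadjusted p under 0.05 in edgeR, beside 13 of 404 and 68 of 426. The log2 fold changes of miR-148a-3p were 7.3e-05 (SE 0.30) in spermatocytes and 0.10 (SE 0.25) in round spermatids, and those of miR-152-3p -0.0037 (SE 0.34) and 0.37 (SE 0.26). For miR-148a-5p they were -0.64 (SE 0.52) and -0.37 (SE 0.35).

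The cell types were compared within each genotype. In Ago413+/+, round spermatid levels of miR-148a-3p stood at a log2 fold change of 0.14 (SE 0.28) over spermatocytes, those of miR-148b-3p at 0.34 (SE 0.39) and those of miR-152-3p at 0.20 (SE 0.29). None of 5 members was called in Ago413+/+ or in Ago413+/- by edgeR or DESeq2, beside 0% of 450 miRNAs in each by both tools. No member had an unadjusted p under 0.05 in edgeR, beside 10 and 15 of 450. In Ago413-/- 1 of 5 was called, miR-152-3p, beside 4.89%, and its libraries, at 125, 80.0, 167 and 96.3 CPM in spermatocytes and 233, 281, 222 and 244 CPM in round spermatids, did not overlap, beside 12.2%. The log2 fold change was 1.04 (SE 0.30, edgeR adjusted p = 0.0427). This call was lost with library totals (edgeR adjusted p = 0.0713), without the filter on low counts (0.121), with a term for library numbers above 60 (0.0522), with only these 2 groups fitted (0.149) and on leaving out 6 of the 8 libraries in turn. The change of miR-152-3p with genotype did not pass the test of a difference between the cell types (interaction 0.85 on the log2 scale, SE 0.41, edgeR adjusted p = 0.394). None of 5 members passed that test by edgeR or DESeq2, beside 0% of 450 miRNAs by both. No member had an unadjusted p under 0.05 in edgeR, beside 55 of 450.

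Within the family, more miR-148a-3p was counted per miR-152-3p in Ago413-/- than in Ago413+/+ spermatocytes, without overlap. Together the 3 strands took 3.88% ± 0.71 (SD, n = 4) of the counts of a library in Ago413+/+ spermatocytes, 3.59% ± 0.56 in Ago413+/- and 5.06% ± 1.78 in Ago413-/-. In round spermatids they took 4.07% ± 0.33, 4.30% ± 1.02 and 5.75% ± 1.33. miR-148a-3p made up between 82.1% and 87.5% of the family on average in every group. The number of miR-148a-3p counts per miR-152-3p count was 101, 205, 106 and 155 in Ago413+/+ spermatocytes and 352, 352, 336 and 625 in Ago413-/-, so that all 4 null libraries lay above the wild-type and the Ago413+/- libraries (97.0 to 207). In round spermatids it was 92.0, 171, 188 and 113 in Ago413+/+ and 216, 233, 332 and 130 in Ago413-/-, where replicate 4 fell inside the wild-type range. Per miR-148b-3p count, Ago413-/- round spermatids had 7.73, 7.14, 7.72 and 6.50 counts of miR-148a-3p, all above the Ago413+/+ libraries at 4.21, 4.96, 6.46 and 4.002, though by a narrow margin at 6.50 against 6.46. In Ago413-/- spermatocytes the same ratio ran from 4.64 to 19.7 and overlapped that of wild-type (4.55 to 6.50). The miR-152-3p counts behind the first ratio were low, from 12 to 48 per Ago413-/- spermatocyte library. These ratios were not tested, and how many ratios of other miRNAs lacked overlap was not counted. Among single miRNAs, 19.8% of the 404 tested in spermatocytes did not overlap in CPM between Ago413-/- and Ago413+/+.

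**Figure D4:**
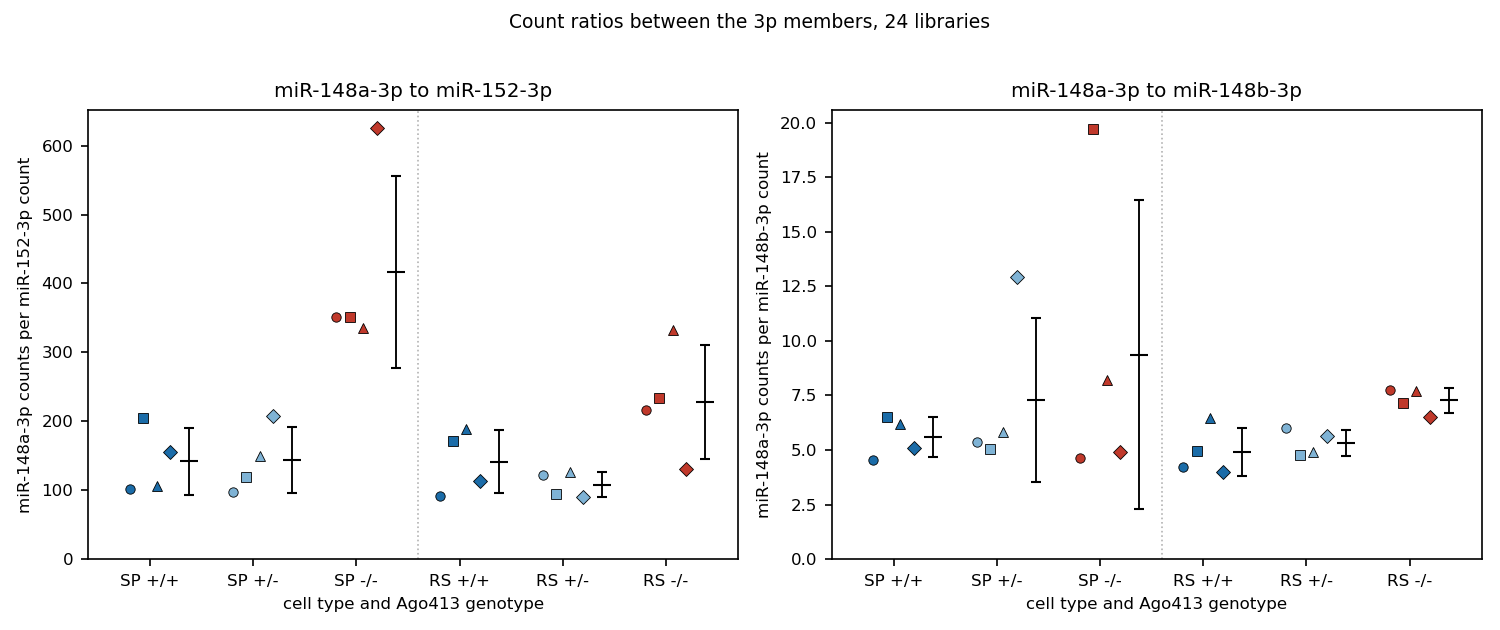
Counts of miR-148a-3p per count of miR-152-3p (left) and of miR-148b-3p (right) in each of the 24 libraries, by cell type (SP, RS) and Ago413 genotype, on linear axes from 0; symbols are replicates 1 to 4 and bars the mean ± SD (n = 4). The 4 Ago413-/- spermatocyte libraries sit between 336 and 625 on the left, above the 205 that is the highest of Ago413+/+ spermatocytes.

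Ordered by mean level over the 6 groups, neighbouring groups overlapped for every member. Group means of miR-148a-3p ran from 30084 CPM in Ago413+/- spermatocytes to 55373 in Ago413-/- round spermatids, with Ago413-/- the highest genotype in each cell type. miR-148a-5p ran the other way, from 17.8 CPM in Ago413-/- round spermatids through 19.8 in Ago413-/- spermatocytes to 54.8 in Ago413+/+ round spermatids. miR-148b-3p ran from 4465 to 7535 CPM and miR-152-3p from 117 CPM in Ago413-/- spermatocytes to 318 in Ago413+/- round spermatids. Means of the same strand are set side by side here, on 1 scale for all libraries.

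The miRNAs whose log2 CPM followed each 3p member most closely over the 24 libraries were different for each. For miR-148a-3p they were miR-881-3p (Pearson r = 0.86), let-7i-5p (0.80) and let-7j (0.73), for miR-148b-3p miR-27b-3p (0.80), miR-103-3p and miR-467a-5p (0.76 each), and for miR-152-3p miR-210-3p (0.79), miR-147-3p (0.77) and miR-883b-3p (0.74), each chosen as the highest of 449. By rank (Spearman rho) the likeness was weaker for miR-27b-3p (0.54), miR-103-3p (0.44) and miR-147-3p (0.48). For the others rho lay between 0.64 and 0.80. Between members, r was 0.60 for miR-148a-3p with miR-148b-3p, -0.10 for the strands of miR-148a and -0.06 for miR-148a-3p with miR-152-3p. The libraries share depth, scaling and the 6 groups, and these values are descriptions.

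Other miRNAs with a related seed or target were read from fixed lists. Of miR-130a-3p, miR-130b-3p, miR-301a-3p and miR-301b-3p, the 3 with a RefSeq sequence (all but the last) have the seed AGUGCAA, which shares 6 bases with that of the 3p members. The summed level of the list was at most 107 CPM in any library, far below miR-148a-3p. Only 2 of the 4 were tested, and neither was called between Ago413-/- and Ago413+/+ in either cell type by edgeR. In Ago413-/- against Ago413+/+, miR-130a-3p stood at log2 fold changes of 0.07 (SE 0.46) in spermatocytes and 0.99 (SE 0.46) in round spermatids, and miR-130b-3p at -1.26 (SE 0.65) and -0.47 (SE 0.41). The miR-29 miRNAs target the de novo DNA methyltransferases Dnmt3a and Dnmt3b. In round spermatids 1 of 3 was called in the same contrast, beside 16.2% of the 426 miRNAs tested. This was miR-29b-3p, which rose by a log2 fold change of 1.07 (SE 0.37, edgeR adjusted p = 0.0463). miR-29a-3p was at 0.25 (SE 0.24) and miR-29c-3p at 0.70 (SE 0.69). In spermatocytes neither of the 2 tested was called, with miR-29a-3p at -0.84 (SE 0.38) and miR-29b-3p at -0.69 (SE 0.61).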

How the data were processed

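Small RNA libraries (NEBNext kit) of 6 groups of 4 were analysed. The authors trimmed reads with TrimGalore, matched them to mature mouse miRNAs of miRBase with the miRDeep2 quantifier and deposited raw counts per miRNA, neither normalized nor summed into families. The handling of mismatches and of reads matching several miRNAs is not given in the sources used here. No column of another series was present.

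Counts were analysed in R 4.3.3 with edgeR 4.0.16. Those reaching 10 counts in 3 or more libraries of a fit were kept (404 in spermatocytes, 426 in round spermatids, 450 over all 24), scaled by TMM and tested with the quasi-likelihood F test, with the 3 genotypes of a cell type in 1 fit, and all 6 groups in 1 fit for contrasts between cell types and for the interaction (no fold threshold). Standard errors are log2 fold changes over the square root of F. Printed CPM use TMM factors over 24 libraries. Overlap was read on these CPM. Scripts were tested on simulated data. No replicates were alike within sampling noise.

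The members and lists were chosen with earlier results of these data known. Named miRNAs are the members, the 3 most correlated with each 3p member (log2 CPM, prior count 2), those sharing a seed, and the fixed lists. The alternatives were DESeq2 1.42.0, RLE scaling, library totals, no filter, at least 10 counts in every library, a term for library numbers above 60, a replicate block, the adjusted p alone, only the 2 groups compared, and leaving out each library. Loss of the Ago mRNAs cannot be checked in miRNA counts. Hairpins, mature sequences and host genes are from RefSeq (GRCm38.p6) and GENCODE vM21 of the same build.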

Additional observations from a re-analysis of the deposited data

Results flagged for a closer look

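Of the 30 sets of 4 libraries examined, for the 5 members tested over all libraries, 1 held a library far from the other 3. Chance alone gives about 1 in 20 such sets, or 1.5 of 30, so the number found is not above chance. In Ago413+/- round spermatids, miR-148a-3p was at 46535 CPM in replicate 1, while the other 3 libraries lay between 29062 and 31110 CPM, so that the gap took 0.883 of the whole range. Without it, the log2 fold change of miR-148a-3p in Ago413-/- against Ago413+/- round spermatids was 0.98 (edgeR adjusted p = 0.0224). Of the 17 alternatives for that contrast, only 3 had an adjusted p under 0.05.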

How the results depend on the processing

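Of 396 log2 fold changes of members under alternatives other than leaving out a library, 366 kept their sign and their status as called or not called. On leaving out 1 library, 379 of 416 did so. Most were not called in the main fits, and a value under the fold threshold could cross the adjusted p threshold and still count as kept. The fall of miR-148a-5p in Ago413-/- against Ago413+/+ round spermatids was called in all 16 alternatives that could test it (-1.86 to -1.34, edgeR or DESeq2 adjusted p 0.00252 to 0.0351). It had too few counts for the filter of 10 in every library. Among the 396 and the 16, the adjusted p alone reuses the main fit, so that setting could not lose a call.

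The number of members called there went from 1 to 0 under that filter, to 2 with the adjusted p alone, and between 1 and 2 on leaving out a library (2 without Ago413-/- replicate 4). Against Ago413+/- it went from 0 to 1 with DESeq2, RLE, library totals, no filter, the library number term, the adjusted p alone, or only the 2 groups. In Ago413-/- round spermatids against spermatocytes it went from 1 to 0 with library totals, no filter, the library number term or only the 2 groups, and between 0 and 1 on leaving out a library (0 without spermatocyte replicate 2 or 4 or any round spermatid replicate). The cause was not tested.

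Libraries of equal replicate number were not taken as pairs. The labels do not say that they share mice, although their library numbers are adjacent in 11 of 12 pairs of the cell types within a genotype. Over these 12 pairs, deviations from the group means correlated between -0.16 and 0.42 (median 0.165), over 0.1 in 6, and 4 libraries correlated best with their own number. Whether the numbers mark shared pools cannot be told from this. With the replicate block, the call of miR-152-3p in Ago413-/- round spermatids against spermatocytes went from 1 to 0 members (adjusted p = 0.0563), and no other count of members called changed.

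Signs turned for values that were not called. Ago413+/- against Ago413+/+ spermatocytes: miR-152-3p 0.042 (DESeq2), 0.044 (RLE), 0.024 (library number) and 0.029 (2 groups), and -0.33 to 0.10 on leaving out a library; miR-148a-3p -0.076 (totals), -0.13 (no filter), -0.0015 (10 in every library) and -0.029 (block), and -0.17 to 0.063. Ago413-/- against Ago413+/+ round spermatids: miR-152-3p -0.031 (DESeq2), -0.027 (RLE), -0.17 (totals), -0.16 (no filter), -0.053 (10 in every library) and -0.15 (2 groups), and -0.23 to 0.093; miR-148b-3p -0.037 (totals). With totals, miR-148b-5p was at -0.040 in Ago413-/- against Ago413+/- and miR-148b-3p at -0.029 in Ago413-/- round spermatids against spermatocytes. Other ranges on leaving out a library were, in Ago413+/- against Ago413+/+ round spermatids, -0.12 to 0.18 for miR-148a-3p and -0.22 to 0.0052 for miR-148b-3p, and in Ago413-/- against Ago413+/-, -0.21 to 0.47 for miR-148b-5p. For round spermatids against spermatocytes they were -0.015 to 0.25 (miR-148a-3p), -0.0085 to 0.49 (miR-148a-5p) and -0.56 to 0.14 (miR-148b-5p) in Ago413+/+, -0.037 to 0.36 (miR-148a-3p) in Ago413+/-, and -0.44 to 0.42 (miR-148a-5p) and -0.20 to 0.49 (miR-148b-3p) in Ago413-/-. For the interaction they were -0.0020 to 0.43 (miR-148a-3p), -0.77 to 0.11 (miR-148a-5p) and -0.49 to 0.19 (miR-148b-3p).

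Counts over all miRNAs depended on the tool and filter: in Ago413-/- against Ago413+/+ spermatocytes 18 were called by edgeR, 61 by DESeq2 and 55 without the filter, against Ago413+/- 9, 57 and 40, and in Ago413-/- round spermatids against spermatocytes 22, 49 and 43 (2 with only the 2 groups). In round spermatids 69 became 42 under the filter of 10 in every library, and 53 became 35 against Ago413+/-. Depth limits the 5p strands most, with at most 64 counts in a library.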
